A study of Mus musculus with 4 samples.

Results

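Interferon-stimulated genes are the genes that cells switch on when interferon reaches them, and 35 of them were followed here in a mouse macrophage line on its way to becoming osteoclasts. Members were taken from a list of gene symbols. A member entered with the probe set whose platform annotation gives that symbol alone, or with the brightest of these. Of the 35 genes, 30 had such a probe set, among 19938 genes on the array. The probe sets that read Isg15, Ifi47, Igtp and Gbp2 carry several symbols and Ifi44 was matched to none, so the levels of these 5 genes are not analysed here. RAW 264.7 is a transformed mouse macrophage-like line that forms multinucleated, bone-resorbing osteoclasts under RANKL, the osteoclast-inducing ligand, and M-CSF, a macrophage growth factor. The 4 groups were RAW 264.7 cells transfected with a control vector without stimulation, the same cells after 72 h of RANKL and M-CSF (given as 20 ng/ml), cells transfected with a miR-155 expressing vector without stimulation, and these after the same 72 h. The series text calls the control cells wild-type, and whether a transfected population is a pool or a clone is not given in the sources used here. Each group has 1 array, which leaves differences between single arrays without a replicate check; precision is limited by having so few arrays.

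Type I interferons bind the receptor of Ifnar1 and Ifnar2, whose Janus kinases phosphorylate STAT factors, STAT2 among them. STAT2 is part of a complex with IRF9 that binds the interferon-stimulated response element (ISRE) in promoters, while type II interferon acts on the gamma-activated site (GAS). The induced proteins sense foreign RNA and DNA, cut or modify RNA, block viral translation, entry or budding, and present antigen. Macrophages keep a low tonic interferon signal. In osteoclast precursors RANKL is known to induce interferon beta, which in turn restrains osteoclast formation.

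Promoter sequences are shown because the ISRE is an element through which type I interferon acts on many such genes. RefSeq windows on GRCm38.p6, each 300 bases from 250 before to 50 after a transcription start, were matched by symbol for 26 of the 35 genes. The entries for Dhx58, Zbp1, Oas2, Usp18, Mx1, Mx2, Ly6e, Rtp4 and Parp14 are missing. The 6 windows below belong to the measured genes that hold a core and had the largest difference with stimulation in control cells. Capitals mark every core, which is GAAA, any 2 bases and GAAA again, or TTTC, any 2 bases and TTTC where it lies on the other strand, and overlapping matches run together.
Trim30a, chr7:104465144-104465443, minus strand: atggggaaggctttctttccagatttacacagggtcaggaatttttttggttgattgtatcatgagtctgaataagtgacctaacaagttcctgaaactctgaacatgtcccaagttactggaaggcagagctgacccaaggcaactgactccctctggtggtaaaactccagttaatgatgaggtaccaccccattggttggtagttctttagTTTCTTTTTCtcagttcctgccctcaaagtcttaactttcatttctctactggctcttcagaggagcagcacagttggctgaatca
Oas3, chr5:120777610-120777909, minus strand: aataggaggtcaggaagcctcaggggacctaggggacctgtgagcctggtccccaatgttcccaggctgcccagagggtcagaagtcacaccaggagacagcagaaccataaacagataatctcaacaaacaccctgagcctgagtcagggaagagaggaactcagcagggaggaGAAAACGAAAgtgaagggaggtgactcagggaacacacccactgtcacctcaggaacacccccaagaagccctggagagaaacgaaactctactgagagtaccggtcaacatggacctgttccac
Bst2, chr8:71537423-71537722, minus strand: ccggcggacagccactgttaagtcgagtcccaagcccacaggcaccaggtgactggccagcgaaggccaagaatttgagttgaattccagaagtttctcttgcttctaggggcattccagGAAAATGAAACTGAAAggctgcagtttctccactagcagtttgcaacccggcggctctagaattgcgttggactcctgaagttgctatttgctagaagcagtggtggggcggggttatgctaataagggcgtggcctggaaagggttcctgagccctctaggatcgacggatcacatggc
Ifih1, chr2:62646206-62646505, minus strand: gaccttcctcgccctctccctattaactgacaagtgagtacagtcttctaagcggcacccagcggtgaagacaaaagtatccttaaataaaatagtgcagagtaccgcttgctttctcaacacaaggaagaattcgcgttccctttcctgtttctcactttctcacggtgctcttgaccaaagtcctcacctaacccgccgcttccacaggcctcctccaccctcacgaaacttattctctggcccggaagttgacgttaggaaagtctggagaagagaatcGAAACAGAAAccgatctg
Stat2, chr10:128270248-128270547, plus strand: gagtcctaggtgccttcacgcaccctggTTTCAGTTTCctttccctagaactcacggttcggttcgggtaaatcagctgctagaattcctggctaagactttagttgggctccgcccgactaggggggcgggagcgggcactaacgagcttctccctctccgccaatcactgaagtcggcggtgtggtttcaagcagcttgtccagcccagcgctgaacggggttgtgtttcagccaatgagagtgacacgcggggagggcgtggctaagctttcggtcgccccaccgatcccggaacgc
Irgm1, chr11:48871371-48871670, minus strand: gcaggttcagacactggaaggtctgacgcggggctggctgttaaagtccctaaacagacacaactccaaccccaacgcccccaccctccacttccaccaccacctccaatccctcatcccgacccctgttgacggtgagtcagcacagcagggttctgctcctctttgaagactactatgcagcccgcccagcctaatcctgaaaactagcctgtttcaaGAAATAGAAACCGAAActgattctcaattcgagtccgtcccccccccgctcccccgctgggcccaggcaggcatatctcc
Counted from the transcription start, the core of Trim30a begins at base -36 and that of Oas3 at base -75. Irgm1 has 2 overlapping cores, which begin at bases -30 and -24, and Bst2 has 2, at bases -130 and -124. In Stat2 the match begins farther off, at base -222, and in Ifih1 it lies within the transcript, at base 33. Mature miR-155, the microRNA that the vector expresses, is shown with its seed, bases 2 to 8, in capitals. The RefSeq mature sequence lies on chr16:84714143-84714165, plus strand.
mmu-miR-155-5p: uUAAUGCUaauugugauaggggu

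In all, 15 of the 26 genes, which include the 5 without an analysed level, (57.7%) had an ISRE core in at least 1 window, against 3.99% of all 27025 genes with a window. Of the 26, 8 (30.8%) held the GAS letters TTCNNNGAA, which read the same on both strands, against 9.55% of all genes. Both motifs occurred in 4 genes and neither in 7. The ISRE and GAS matches overlapped in the window of Bst2. The map of motif matches shows most cores before the start, with those of Ifih1, Eif2ak2 and a second start of Trim30a after it. A match is a stretch of letters, not a bound site, and a window without one says only that these letters are not in it.

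**Figure D1:**
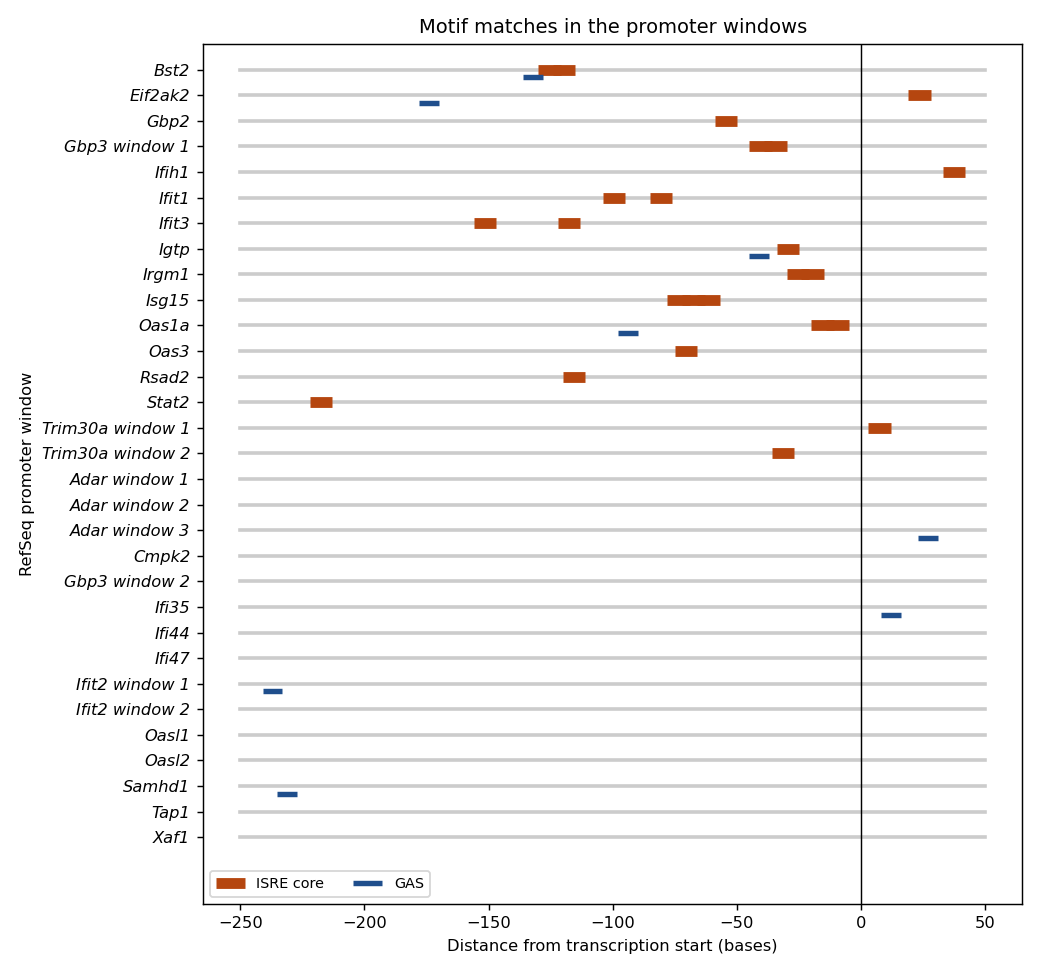
Positions of ISRE cores (orange) and GAS matches (blue) along the RefSeq promoter windows of 26 interferon-stimulated genes, in bases from the transcription start; genes with several starts have a line for each. Cores appear in 15 genes, singly or as 2 or 3 matches, and GAS matches in 8.

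Levels are log2 probe set values. The floor was set at 4.25, the level that 95% of values stayed under for 1210 probe sets of olfactory and vomeronasal receptors, and 13545 genes exceeded it on at least 1 array. The same receptor probe sets gave a noise reference for each comparison: for 95% of them stimulation shifted the log2 value by under 0.48 with the control vector and under 0.41 with the miR-155 vector, and the vectors were under 0.37 apart without stimulation and under 0.47 apart with it. This describes dim probe sets and is not the error of replicate cultures. Of the 30 measured interferon-stimulated genes, 28 were above the floor on at least 1 array and 23 on all 4. Mx1 and Ifit3 stayed under it on every array, and Zbp1, Ifit1, Ifit2, Mx2 and Gbp3 crossed it on some arrays only, so the counts below are also given with all 30 genes. The array of stimulated control cells differed most from the rest: over genes above the floor it correlated with the other arrays at 0.908 to 0.937 (Pearson), and those 3 with each other at 0.982 to 0.989. This array enters 2 of the 4 comparisons below. Macrophage markers (11 of 13) and osteoclast markers (11 or 12 of 12) were above the floor on every array, and their levels by group are given at the end. In bulk RNA, fewer cells of a type and less RNA per cell cannot be told apart.

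Most interferon-stimulated genes had lower levels in control-vector cells after 72 h with RANKL and M-CSF than without. Of the 28 genes above the floor, 19 (67.9%) were lower by 1.5-fold or more and 0 were higher, against 15.2% of all 13545 genes lower and 12.4% higher. Their median log2 difference was -0.97 (1.96-fold lower), against -0.02 for all genes, and 27 of 28 were lower by any amount, against 52.2% of all genes. Past 2-fold, 14 were lower, against 6.93% of all genes. With all 30 measured genes the median was -0.85 and 19 were lower; among the 23 genes above the floor on all 4 arrays it was -1.10 and 18 were lower.

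**Figure D2:**
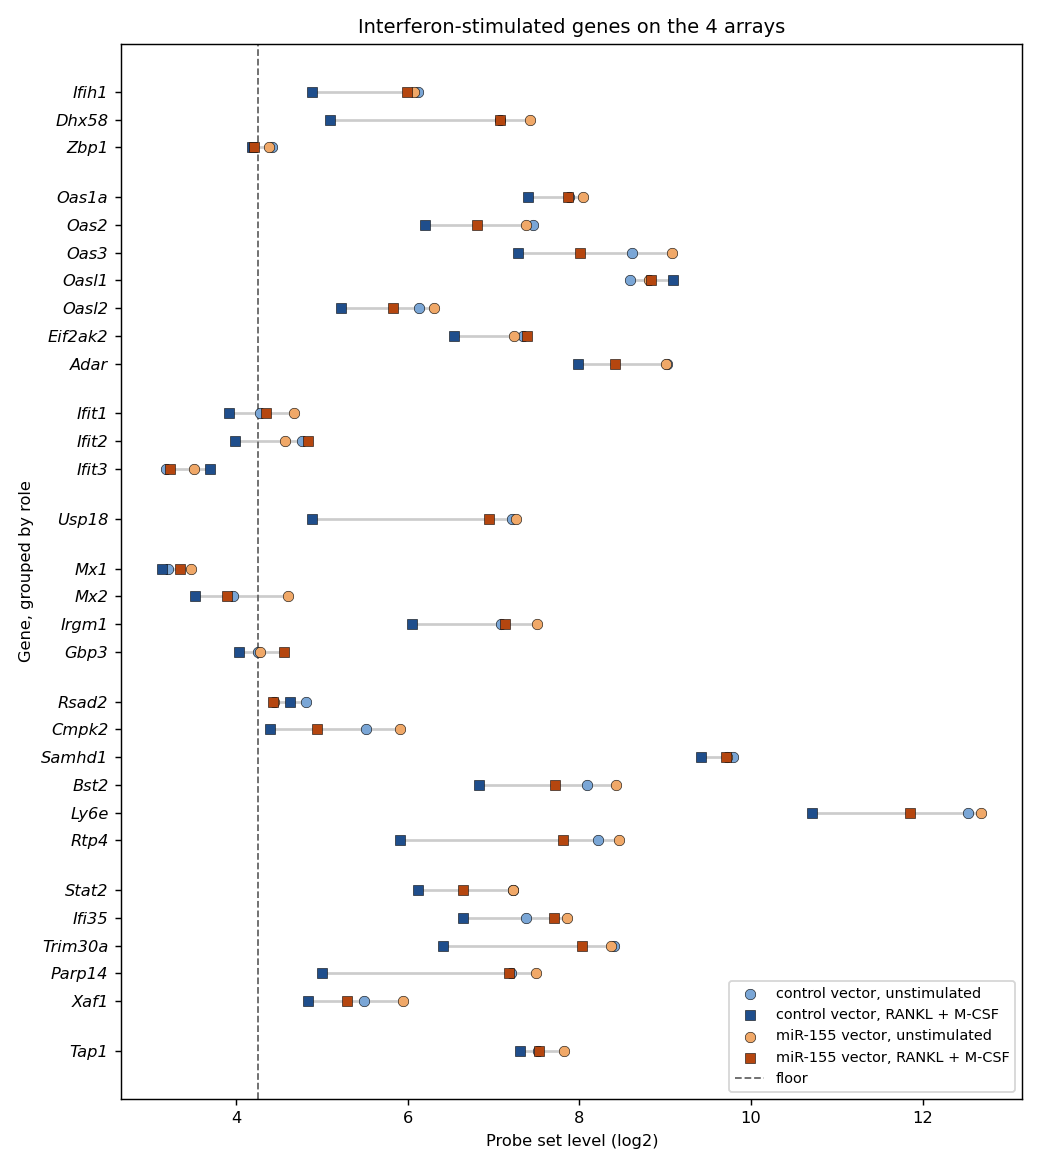
Log2 level of each of the 30 measured interferon-stimulated genes on the 4 arrays, grouped by role; the dashed line is the floor of 4.25. The dark blue squares (control vector with RANKL and M-CSF) are the lowest point for 26 of the 28 genes above the floor, with Oasl1 and Rsad2 as the exceptions.

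The ISG15 system and the signalling regulators included Usp18, Parp14 and Trim30a, 3 of the 4 genes with the largest differences. Usp18, the protease that removes ISG15 and blocks the type I interferon receptor, had levels of 7.21 in unstimulated control cells, 4.89 in stimulated control cells, 7.27 in unstimulated miR-155 cells and 6.94 in stimulated miR-155 cells. The stimulated control array alone was low, by 5.0-fold (-2.32) against its unstimulated partner. Parp14, an ADP-ribosyltransferase of macrophages, stood at 7.20 and 5.0 in the control cells without and with stimulation and at 7.49 and 7.18 in the miR-155 cells. Trim30a, an interferon-induced ubiquitin ligase family protein, read 8.41 and 6.41 in control cells and 8.36 and 8.02 in miR-155 cells. As for Usp18, 1 array was low and the other 3 lay close together. Stat2, a subunit of the factor that binds the ISRE, had 7.22 and 6.12 in control cells and 7.23 and 6.65 in miR-155 cells, so both stimulated arrays were below both unstimulated ones. Ifi35, an interferon-induced leucine zipper protein, had 7.38 and 6.64 in control cells and 7.86 and 7.70 in miR-155 cells. Xaf1, a pro-apoptotic partner of XIAP, had 5.49 and 4.84, and 5.94 and 5.29, the same difference of -0.65 under both vectors.

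Of the 3 nucleic acid sensors, 2 had the pattern of Usp18. Dhx58, which encodes the helicase LGP2, had 7.07 and 5.09 in control cells and 7.43 and 7.07 in miR-155 cells, a difference of -1.98 in the former and -0.35 in the latter. Ifih1, the sensor MDA5 of long double-stranded RNA, had 6.12 and 4.88 in control cells and 6.07 and 5.99 in miR-155 cells. Zbp1, a sensor of Z-form nucleic acids, lay next to the floor at 4.19 to 4.42 and differed by no more than 0.23 in any of the 4 comparisons.

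The oligoadenylate synthetases, which activate RNase L, differed among themselves. Oas3 had 8.62 and 7.28 in control cells and 9.08 and 8.01 in miR-155 cells, lower with stimulation under both vectors (-1.33 and -1.07). Oas2 had 7.46 and 6.20 in control cells and 7.38 and 6.80 in miR-155 cells. Oasl2, an oligoadenylate synthetase-like protein, had differences of -0.91 and -0.48, both past the noise reference of their comparison. Those of Oas1a, -0.47 and -0.17, both lay within it. Oasl1, which represses translation of Irf7 mRNA, was the only gene of the 28 that was higher in stimulated control cells: its levels were 8.59 and 9.09 in control cells and 8.81 and 8.84 in miR-155 cells. Its difference of 0.50 fell short of 1.5-fold and lay just past the noise reference. Oas1a has close paralogs, so its probe set may read more than 1 gene. Adar, which edits adenosine to inosine in double-stranded RNA, had 9.02 and 7.99 in control cells and 9.0 and 8.42 in miR-155 cells. Eif2ak2, the kinase PKR that halts translation, had 7.34 and 6.54 in control cells and 7.24 and 7.39 in miR-155 cells, so only the control cells had a lower level with stimulation.

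Among proteins that act on membranes and nucleotides, Rtp4, a chaperone of receptor transport, had 8.21 and 5.90 in control cells and 8.46 and 7.81 in miR-155 cells. Ly6e, a surface protein that hinders coronavirus entry, had 12.53 and 10.71 in control cells and 12.69 and 11.85 in miR-155 cells. Bst2, or tetherin, which holds budding virions on the cell, had 8.09 and 6.83 in control cells and 8.42 and 7.71 in miR-155 cells. For these 3 genes both stimulated arrays were low, and the stimulated control array was the lower of them. Cmpk2, a mitochondrial nucleotide kinase, had 5.51 and 4.39 in control cells and 5.91 and 4.94 in miR-155 cells, differences of -1.11 and -0.97. Samhd1, which hydrolyses deoxynucleotides, stayed between 9.42 and 9.79 on the 4 arrays. Rsad2, the antiviral enzyme viperin, which is a neighbour of Cmpk2 in the genome, stayed between 4.43 and 4.81, with the lower levels in miR-155 cells.

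Of the remaining genes, Irgm1 had the largest differences, and most of the others were dim. Irgm1, an immunity-related GTPase that acts on phagosomes and autophagy, had 7.08 and 6.05 in control cells and 7.51 and 7.13 in miR-155 cells. Gbp3, a guanylate-binding protein, lay at 4.03 to 4.56. Mx2, a dynamin-like antiviral GTPase, exceeded the floor on the unstimulated miR-155 array alone (4.61), where it was at least 1.28-fold above both the unstimulated control array and the stimulated miR-155 array. Ifit1 and Ifit2, which bind viral RNA and curb its translation, had levels of 3.91 to 4.67 and 3.99 to 4.84. Ifit2, counted as lower by its value of -0.78 in control cells, lay under the floor with stimulation, so it was at least 1.43-fold lower, and 18 genes are past 1.5-fold with such values set to the floor (14.7% of all genes lower). Tap1, a subunit of the peptide transporter for MHC class I, lay at 7.31 to 7.82, with differences of -0.21 and -0.29.

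In stimulated miR-155 cells the same genes lay closer to their unstimulated levels. Of the 28 genes, 8 (28.6%) were lower by 1.5-fold or more and 0 were higher, against 3.74% and 3.43% of all genes. The median was -0.33, against -0.03 for all genes, and 24 of 28 were lower by any amount, against 54.9% of all genes. Within the noise reference lay 17 of the 28, and 11 (39.3%) were past it, against 16.3% of all genes. Oas3 (-1.07) was the only one past 2-fold, against 0.185% of all genes lower. After it came Cmpk2 (-0.97), Ly6e (-0.83), Bst2 (-0.71), Rtp4 and Xaf1 (-0.65 each) and Adar (-0.59). The eighth is Mx2, which lay under the floor with stimulation and was at least 1.28-fold lower, so that 7 remain with values under the floor set to it (3.52% of all genes lower). Oas2 and Stat2, at -0.58 each, were just short of 1.5-fold. Neither array of this comparison is the stimulated control array that differed from the rest. With all 30 genes the median was -0.32 and 8 were lower.

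**Figure D3:**
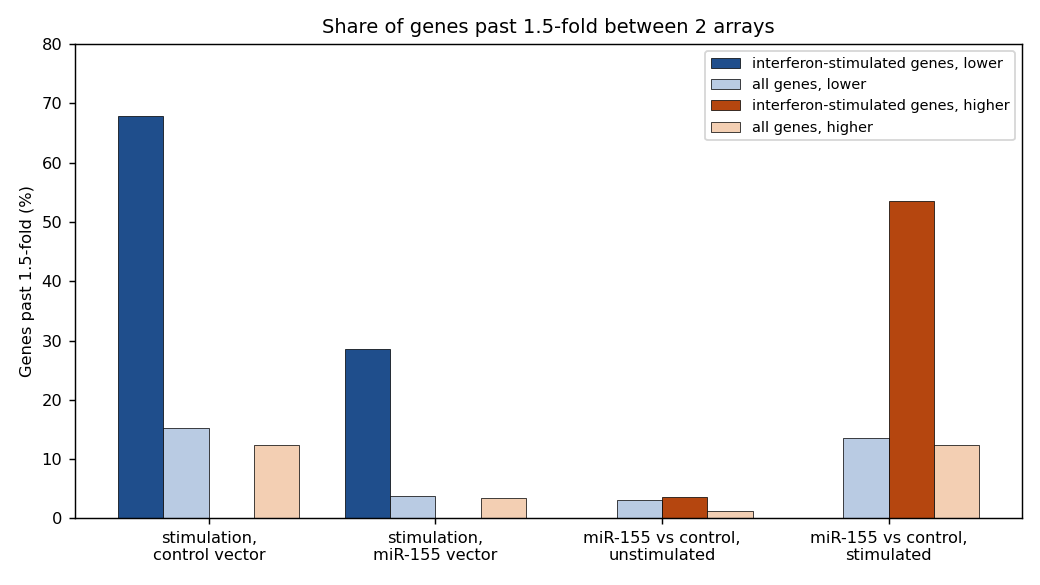
Percent of genes past 1.5-fold, lower (blue) or higher (orange), for the 28 interferon-stimulated genes above the floor (dark) and all 13545 genes above it (pale), in 4 comparisons of 2 arrays. After stimulation of control cells 67.9% of the interferon-stimulated genes were lower (15.2% of all genes), and after that of miR-155 cells 28.6% (3.74%).

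The stimulated-minus-unstimulated differences under the 2 vectors come from separate pairs of arrays. Of the 19 genes lower by 1.5-fold in control cells, 7 (36.8%) were also lower by 1.5-fold in miR-155 cells, against 10.6% of the 2053 genes of the array picked in that way. Their median response was -1.23 with the control vector and -0.48 with miR-155, where those 2053 genes had -0.95 and -0.13. Picking genes by their difference in control cells favours a larger difference there, and 98.1% of the 2053 had it, as did all 19. The difference of the responses, miR-155 minus control, was 1.5-fold or more upward for 12 of the 28 genes (42.9%) and downward for 0, against 14.5% and 13.9% of all genes, and 2-fold or more upward for 7, against 6.64%. It was 2.0 for Usp18, 1.89 for Parp14, 1.66 for Rtp4 and for Trim30a, 1.63 for Dhx58 and 1.16 for Ifih1. The seventh, Ifit2, had 0.79 with its value under the floor set to the floor, which leaves 6 past 2-fold (6.47% of all genes). For Xaf1 (0.01), Cmpk2 (0.14) and Oas3 (0.27) it was small. The fit of 4 groups to 4 arrays leaves no degree of freedom, so this difference has no test. Over the 28 genes, which share arrays and normalization, Pearson's r between them was 0.42 and Spearman's rho 0.53, given as a description; over all genes r was 0.47.

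**Figure D4:**
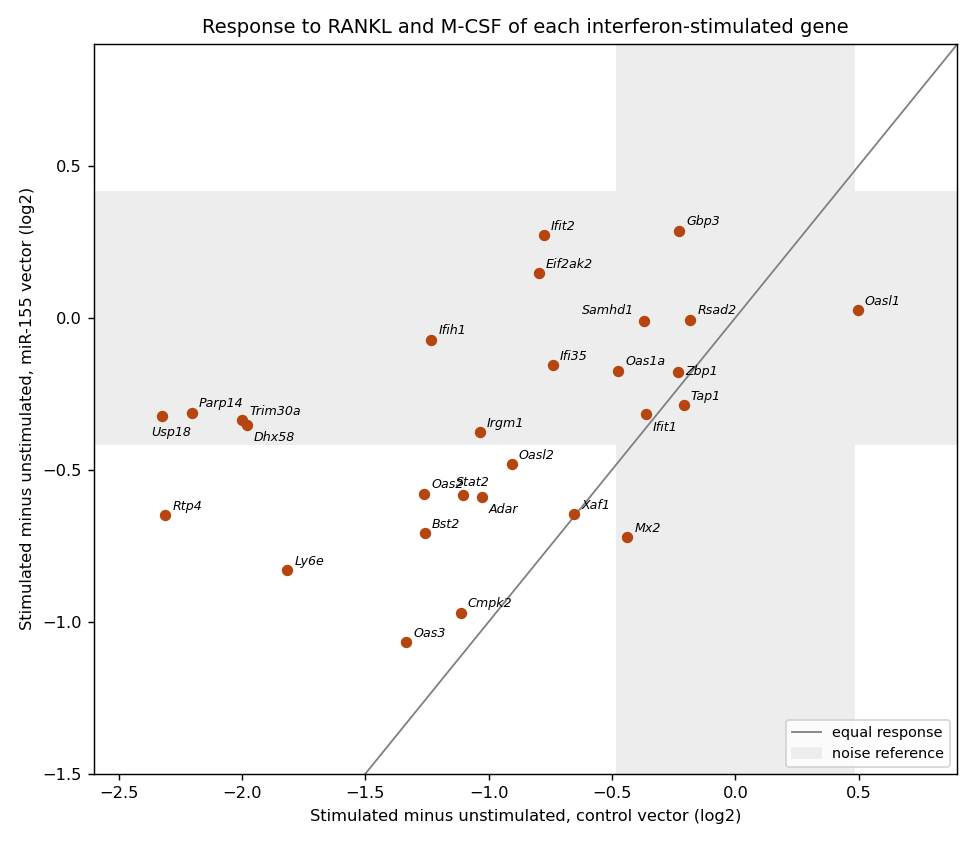
Log2 response to RANKL and M-CSF of the 28 interferon-stimulated genes above the floor in control cells (horizontal) and miR-155 cells (vertical); grey bands are the noise reference of each comparison and the line marks equal responses. Usp18, Parp14, Trim30a and Dhx58 lie far left inside the horizontal band, while Oas3, Cmpk2 and Xaf1 lie near the line.

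Without stimulation the vectors differed little. The 28 genes had a median of 0.17 in miR-155 against control cells, where all genes had 0.00, and 19 of the 28 were higher by some amount, against 49.8% of all genes. Past 1.5-fold there was 1, Mx2 (0.65), which is 3.57% against 1.18% of all genes, and 0 were lower, against 3.15%. Mx2 lay under the floor on the control array, and with that value set to the floor 0 genes passed 1.5-fold. The noise reference of 0.37 was exceeded by 7 genes (25.0%), against 14.8% of all genes. They were Mx2, Ifi35 (0.48), Oas3 (0.46), Xaf1 (0.45), Irgm1 (0.43), Cmpk2 (0.40) and Ifit1 (0.39). Rsad2 was the lowest at -0.37, just inside it.

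With stimulation the miR-155 cells had the higher levels. Of the 28 genes, 15 (53.6%) were higher by 1.5-fold or more and 0 were lower, against 12.4% and 13.6% of all genes, with a median of 0.60 against -0.03. Past 2-fold, 9 were higher, against 5.6% of all genes. The low values of stimulated control cells enter here as they did in the comparison of the control arrays, which uses the same array. Parp14 (2.18), Usp18 (2.05), Dhx58 (1.98), Rtp4 (1.91) and Trim30a (1.62) stood highest. Oasl1 (-0.25) and Rsad2 (-0.19) were the 2 genes that were lower.

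Over the 4 arrays, the stimulated control array was the lowest for 26 of the 28 genes (92.9%), against 36.2% of all genes. The unstimulated miR-155 array was the highest for 17 (60.7%), against 25.8%. The full order, stimulated control below stimulated miR-155 below unstimulated control below unstimulated miR-155, held for 13 of 28 (46.4%), against 9.23% of all genes. In 21 of the 28 genes, though, the step from unstimulated control to unstimulated miR-155 lay within the noise reference, so these 2 neighbours in the order are not set apart. The step from stimulated miR-155 to unstimulated control has no noise reference. It was small for Dhx58 (7.073 and 7.074) and Parp14 (7.18 and 7.20), and larger for Oas3 (8.01 and 8.62) and Ly6e (11.85 and 12.53).

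An additive limma model over the 4 arrays tested stimulation across both vectors and miR-155 across both states. Its residual error has 1 degree of freedom, the disagreement between the vectors. With Benjamini-Hochberg adjustment over 13545 genes, limma called 0 interferon-stimulated genes and 0 genes in all (0% of genes) for either term. At an unadjusted p under 0.05, 12 of the 28 (all lower) passed for stimulation, against 3.56% of all genes lower and 4.01% higher. For miR-155, 3 passed (all higher), against 1.15% higher and 2.71% lower. Oas3 had the lowest p for stimulation (log2 -1.20, SE 0.20, limma adjusted p 0.647, lower in 2 of 2 vectors), and Ifi35 for miR-155 (log2 0.77, SE 0.24, limma adjusted p 0.890, higher in 2 of 2 states). Usp18, Parp14 and Trim30a, whose responses differed by at least 1.66 between the vectors, had SEs of 0.46 to 0.53.

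Genes with and without an ISRE core were set side by side as a description. The 11 genes above the floor with a core had a median stimulation difference of -1.04 in control cells (range -2.0 to -0.18), with 7 lower by 1.5-fold. The 9 without one in their window had a median of -0.74 (range -1.11 to 0.50), with 6 lower. The share of all genes lower was 15.2%. In miR-155 cells the medians were -0.32 and -0.29. The ranges overlap in both. Genes above the floor without a window are left out of these groups. In control cells they had -2.32 (Usp18), -2.31 (Rtp4), -2.20 (Parp14), -1.98 (Dhx58), -1.82 (Ly6e), -1.26 (Oas2), -0.44 (Mx2) and -0.23 (Zbp1). Of the genes whose sequences are printed above, Trim30a, Ifih1, Stat2 and Irgm1 passed 1.5-fold in control cells and not in miR-155 cells, and Oas3 and Bst2 were lower by 1.5-fold under both vectors. The printed genes were picked by their difference in control cells. Passing 1.5-fold there follows from that choice, which also favours a smaller difference in miR-155 cells. The 7 genes with a GAS match had medians of -0.78 (control cells) and -0.16 (miR-155 cells), and the 13 without one had -0.91 and -0.34.

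The genes that feed into or extend this programme were followed from lists. Of 12 interferon genes with a probe set, 8 stayed under the floor, among them Ifnb1, interferon beta, at 3.21 to 3.49. The other 4 exceeded it, with Ifnl2 the highest at 5.16 to 5.54, none with a difference past 1.5-fold in any comparison. Of 8 receptor and Janus kinase genes above the floor, 4 (50%) were lower by 1.5-fold in stimulated control cells, against 15.2% of all genes. In stimulated miR-155 cells 0 were, against 3.74%. Ifnar2, a chain of the type I receptor, had 9.34 and 8.33 in control cells and 9.22 and 8.80 in miR-155 cells. Ifnar1, its partner, had 8.44, 7.74, 7.98 and 7.88 in the same order, so the 3 other arrays lay below the unstimulated control array. The interferon gamma receptor chain Ifngr1 (-1.06 and -0.13) and the kinase Jak2 (-0.70 and 0.25) were the other 2 of the 4. None of the 4 STAT genes above the floor in this list was past 1.5-fold with stimulation.

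Among 7 interferon regulatory factors above the floor, 5 (71.4%) were lower by 1.5-fold with stimulation of control cells, against 15.2% of all genes. With that of miR-155 cells 3 (42.9%) were, against 3.74%. Irf7, which amplifies interferon production, had 8.29 and 6.72 in control cells and 8.72 and 7.36 in miR-155 cells. Irf9, the DNA-binding partner of STAT2, had -0.63 and -0.40. Irf8, a myeloid factor, had -2.33 and -0.86 and Irf2 had -1.06 and -0.14. Irf5 was past 1.5-fold in miR-155 cells (-0.80) and not in control cells (-0.09). Of 11 negative regulators, 3 (27.3%) were lower and 1 (9.09%) higher in control cells, against 15.2% and 12.4% of all genes. In miR-155 cells 0 were lower and 2 (18.2%) higher, against 3.74% and 3.43% of all genes. The phosphatase Ptpn1 was the higher one in control cells (1.96, with 0.75 in miR-155 cells), Ptpn2 had -0.85 and 0.59, and the DNase Trex1 had -0.86 and -0.54. Socs1, an inducible inhibitor of Janus kinases and a gene reported elsewhere as a miR-155 target, lay at 5.68 to 5.98.

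Of 14 nucleic acid sensing genes, 7 (50%) were lower and 1 (7.14%) higher by 1.5-fold in stimulated control cells. The shares over all genes were 15.2% and 12.4%. In miR-155 cells 1 was lower and 1 higher (7.14% each), against 3.74% and 3.43% of all genes. Of the 7 lower in control cells, Tlr3 lay under the floor on both control arrays (4.24 and 3.62). Tlr8 lay under it with stimulation and was at least 1.42-fold lower, so neither is sure to pass 1.5-fold. Tlr7, an endosomal receptor of single-stranded RNA, lay at 8.55 in unstimulated control cells and under the floor in stimulated ones, at least 19.7-fold lower, and at 7.85 and 7.95 in miR-155 cells. The DNA sensor Cgas had 6.01 and 4.73 in control cells and 6.60 on both miR-155 arrays. Ddx58, the sensor RIG-I, had -1.49 and -0.59, and the kinase Ikbke -2.17 and -0.35. Of 10 MHC class I genes, stimulated control cells had 5 lower (50%) and stimulated miR-155 cells 1 (10%). The shares of all genes lower were 15.2% and 3.74%. The peptidase Erap1 (-2.0 and -0.03) and the immunoproteasome subunits Psmb8 (-1.22 and -0.20) and Psmb9 (-0.89 and -0.59) were among the 5, while Tap1 did not pass 1.5-fold.

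A further 39 interferon-stimulated genes that are no members of the 35 had a median of -0.43 in control cells. By 1.5-fold, 17 (43.6%) were lower there and 3 (7.69%) higher, against 15.2% and 12.4% of all genes. Among the 17, Oas1b lay under the floor with stimulation and was at least 1.02-fold lower. In miR-155 cells the median was -0.13, with 6 lower (15.4%) and 2 higher (5.13%), against 3.74% and 3.43% of all genes. The lowest in control cells were Ifi44l (-2.98, with -0.27 in miR-155 cells), the galectin Lgals9 (-2.86 and -1.22), Slfn4 (-2.43 and 0.04) and Lgals3bp (-2.31 and -0.88). The 3 higher genes in control cells were Ifi27 (2.12 and 1.08), Ccl5 (1.58 and 0.77) and Gbp7 (0.87 and 0.18), named after their values were seen. Between the stimulated vectors, 16 of the 39 (41%) were higher and 4 (10.3%) lower by 1.5-fold in miR-155 cells. The shares over all genes were 12.4% and 13.6%. The 16 include Oas1b, which lay under the floor on both stimulated arrays (3.37 with the control vector and 4.03 with miR-155). Of the 7 interferon regulatory factors, 5 (71.4%) were higher and 0 lower.

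**Figure D5:**
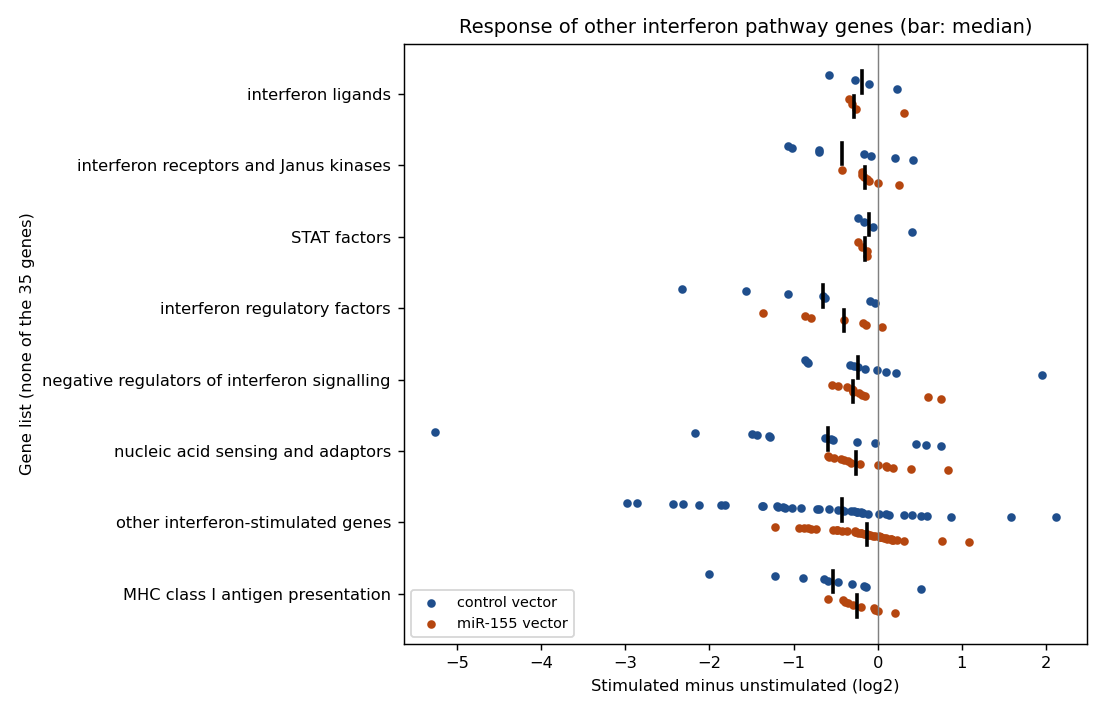
Log2 difference with RANKL and M-CSF of other interferon pathway genes above the floor in control (blue) and miR-155 (orange) cells, by list; black bars are list medians. The 39 other interferon-stimulated genes had medians of -0.43 and -0.13, and the lowest point is Tlr7 in control cells, drawn at its measured difference although its stimulated level lay under the floor (at least 19.7-fold lower).

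Markers of cell state differed on the same arrays. Of 11 macrophage markers above the floor, 9 were lower by 1.5-fold in stimulated control cells (median -3.34) and 0 in stimulated miR-155 cells (median -0.28). The shares of all genes were 15.2% and 3.74%. Cd68 (0.29) and Csf1r (-0.36) did not pass 1.5-fold in control cells. The summed level of the macrophage markers was 15.05 (log2) in unstimulated and 13.53 in stimulated control cells, and 15.00 and 14.81 in miR-155 cells. In stimulated control cells Cd68 (12.96) and Csf1r (11.46) were the brightest and weigh most in that sum. All 12 osteoclast markers were higher by 1.5-fold in stimulated control cells (median 4.91) and 11 of 12 in stimulated miR-155 cells (median 3.12). The shares of all genes higher were 12.4% and 3.43%. Their summed level was 10.21 and 15.32 in control cells, and 9.92 and 13.62 in miR-155 cells. The part of these differences in those of interferon-stimulated genes was not tested. In miR-155 cells 8 interferon-stimulated genes (7 with values under the floor set to it) were lower by 1.5-fold with stimulation. In the same comparison 0 macrophage markers were lower and 11 of 12 osteoclast markers higher by that fold. Whether these are linked was not tested. Of the plasmacytoid dendritic cell markers, 3 of 6 were above the floor, with a summed level of 8.15 to 8.42 over the 4 arrays, and the defining marker Siglech stayed under it. T and B cell markers (4 of 8 above the floor on each array) summed to 7.11 to 7.25, and fibroblast and osteoblast markers (6 or 7 of 8) to 7.85 to 7.91. Among the latter Dcn, the proteoglycan decorin, exceeded the floor in stimulated control cells alone (5.04), at least 1.73-fold above each unstimulated or miR-155 array. Granulocyte and mast cell markers, with 1 or 2 of 10 above the floor, summed to 7.18 to 7.26.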

How the data were processed

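Biotin-labelled cRNA from 100 ng of total RNA of 4 RAW 264.7 cultures was, per the labels' protocols, hybridised to Mouse Gene 1.0 ST arrays of Affymetrix. The authors deposited log2 values, 1 for each probe set and array. Per the submitters' processing notes, RMA and Partek were used, with no version or build given there. RMA of this kind makes array distributions alike, so a change in total RNA is not visible. Array medians were 4.58 to 4.62. Detection calls were not used.

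The platform annotation gave 1 symbol to 21789 of 35557 probe sets, several to 1621 and none to 12147; 21698 matched RefSeq genes (GRCm38.p6) by gene ID with 0 symbols changed. Motifs were searched in RefSeq promoter windows of GRCm38.p6. Differences of log2 values were counted at 1.5-fold. A value under the floor gives a fold as a bound. An additive model of stimulation and vector was fitted with limma 3.58.1 in R 4.3.3 (lmFit, eBayes, threshold 0.05); tested on simulated additive data over 13545 genes with 100 genes changed per size and term, it recovered for stimulation 92% at a log2 change of 1 and 100% at 2, and for miR-155 94% and 100%, with 16 and 11 false calls. The simulation had no interaction, and power on the real arrays is unknown. All 35 genes could be named, and from each other list the key pathway genes and up to 4 with the largest difference. The genes and lists were chosen with earlier results of these data known. Alternatives were other floors, centring, renewed quantile normalization, other probe set choices, a 2-fold threshold and an intensity trend. Python 3.11.15, numpy 2.4.6, pandas 2.3.3 and matplotlib 3.10.9 were used.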

Additional observations from a re-analysis of the deposited data

How the results depend on the processing

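No setting reversed a median or a difference of responses past 1.5-fold. The median stimulation difference in control cells (-0.97) was -0.85 without a filter on low values or with several-symbol probe sets added, -1.11 with the floor at the 99th percentile of the receptor probe sets, and -0.83 after renewed quantile normalization; the median between the stimulated arrays (0.60) was 0.79 with that higher floor. At 2-fold, 1 gene was lower in stimulated miR-155 cells in place of 8, 9 were higher in miR-155 than control cells after stimulation in place of 15, and 7 in place of 12 had a response higher in miR-155 cells. The 1 gene higher in unstimulated miR-155 cells became 0 at 2-fold, with the higher floor or with values under the floor set to it (an alternative chosen after seeing the data), and without a filter 1 gene (Ifit3, under the floor on every array) had a response lower in miR-155 cells in place of 0. These follow from fewer or more genes tested, a higher threshold or, with values set to the floor, Mx2 lying under it on the unstimulated control array. For renewed normalization the cause was not tested. That setting also took the difference of responses of Oas2 (0.55), Irgm1 (0.53) and Ifi35 (0.50) under 1.5-fold and left 9 in place of 12. The other 109 alternative values of the medians and counts kept their direction and stayed within 0.1 (log2) or 1.5 times. limma called 0 of these genes in every setting. No paired analysis was possible because each group has 1 array, beyond the additive fit, which already takes the vector as a block of 1 stimulated and 1 unstimulated array. Without scanner files, background correction and detection were not varied.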
